A study of Rattus norvegicus with 6 samples.

Results

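The cullins, the F-box proteins and the numbered subunits of the anaphase-promoting complex were followed in the rat kidney inner medulla during infusion of dDAVP and after its end. All genes were taken whose single symbol in the annotation of the array begins with Cul, with Fbxl, Fbxo or Fbxw, or with Anapc, each followed by a number. This gave 61 of the 14168 genes measured with a symbol of their own: 5 cullins, 7 Anapc subunits and 49 F-box genes (13 Fbxl, 29 Fbxo and 7 Fbxw). The rule used gene names only and no measured value, though it was set with earlier results of these data known. RefSeq lists 84 protein-coding rat genes with such symbols, and the other 23 were not analysed here.

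Cullins are long scaffold proteins that bind a RING protein, and with it a ubiquitin-charged enzyme, at one end and a substrate receptor at the other. The SCF ligases are the cullin-RING ligases in which Cul1 holds Skp1 and 1 of many F-box proteins, and the F-box protein decides which substrate is marked with ubiquitin. The anaphase-promoting complex is a related, much larger ligase with a cullin-like and a RING subunit of its own, best known for marking cyclin B and securin in mitosis. In the collecting duct, ubiquitin ligases are known for their part in the turnover of the water channel aquaporin 2 and of the epithelial sodium channel.

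Total RNA of the inner medulla of male Sprague-Dawley rats of 200 to 250 g was hybridised to 6 Affymetrix whole-transcript arrays, 2 in each of 3 groups. In the withdrawal group, dDAVP (desmopressin, which activates the vasopressin V2 receptor) ran under the skin at 40 ng/h for 5 d, and the rats then lost the osmotic minipump in the neck under light enflurane anaesthesia, woke in metabolic cages and were sampled 3 h later. The dDAVP group received the same infusion for 5 d. In the vehicle group, such a pump gave saline, at 1 µl/h, for 5 d. All rats were on a fixed ration with free water. Removal of the pump, with its anaesthesia, and the end of the infusion cannot be told apart, since no vehicle pump was removed. Whether the arrays within a group come from different animals is not stated, so p-values measure only the spread between these arrays. In whole tissue, fewer cells of a type and less RNA per cell cannot be told apart.

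Aqp2, the water channel that marks principal cells of the collecting duct, had log2 intensities of 13.14 to 13.40 on the 6 arrays. The summed intensity of 8 principal cell markers was 25794.3 to 29205.3 in withdrawal arrays, 27912.7 to 28656.0 in dDAVP arrays and 26923.9 to 28479.5 in vehicle arrays. That of 3 thick ascending limb markers, a segment of the neighbouring outer medulla, was 2341.0 to 3681.6 in withdrawal, 2653.8 to 4624.3 in dDAVP and 2340.0 to 3269.8 in vehicle arrays. The median intensity over all probe sets was 181.1 to 181.8 in withdrawal arrays, 156.1 to 165.1 in dDAVP arrays and 174.6 to 182.1 in vehicle arrays. Vehicle array 1 and dDAVP array 2 stood apart from the other 4 in genes of cell division. Cdk1, the kinase that drives mitosis, was at 9.54 and 9.56 log2 after withdrawal (replicates 1 and 2, the order used from here on), 8.91 and 7.26 under dDAVP and 7.37 and 9.25 under vehicle. 

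The promoters of 4 members are shown because their genes carry the patterns described below. Anapc10, Fbxo5 and Fbxo17 were lowest on both dDAVP arrays, and Cul4b had the widest range over the arrays. Each line gives the strand of the gene, 5′ to 3′, from 250 bases before to 50 bases after the annotated start, from RefSeq on build GRCr8. Capitals mark 3 short motifs on either strand: TGACG, the half-site of the cAMP response element, CCAAT, the box bound by NF-Y, and TTTGAA, the cell cycle homology region.
Anapc10: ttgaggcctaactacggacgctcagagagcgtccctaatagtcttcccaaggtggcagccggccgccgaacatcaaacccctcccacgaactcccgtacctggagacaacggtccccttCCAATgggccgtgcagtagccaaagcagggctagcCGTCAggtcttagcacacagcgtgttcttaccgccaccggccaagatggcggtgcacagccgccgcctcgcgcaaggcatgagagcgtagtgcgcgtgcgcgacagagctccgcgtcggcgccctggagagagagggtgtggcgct
Fbxo5: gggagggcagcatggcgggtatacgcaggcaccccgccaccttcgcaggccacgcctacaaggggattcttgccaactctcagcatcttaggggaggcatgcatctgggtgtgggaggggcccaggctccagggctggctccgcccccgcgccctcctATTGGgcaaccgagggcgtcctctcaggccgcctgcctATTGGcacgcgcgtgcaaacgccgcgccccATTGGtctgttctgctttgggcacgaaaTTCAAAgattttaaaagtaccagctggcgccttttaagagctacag
Fbxo17: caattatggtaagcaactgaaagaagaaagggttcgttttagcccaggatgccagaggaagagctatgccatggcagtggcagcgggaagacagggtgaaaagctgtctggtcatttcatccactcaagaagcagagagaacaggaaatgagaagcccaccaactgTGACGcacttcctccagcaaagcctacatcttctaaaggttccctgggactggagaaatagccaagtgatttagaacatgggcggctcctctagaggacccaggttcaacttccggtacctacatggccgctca
Cul4b: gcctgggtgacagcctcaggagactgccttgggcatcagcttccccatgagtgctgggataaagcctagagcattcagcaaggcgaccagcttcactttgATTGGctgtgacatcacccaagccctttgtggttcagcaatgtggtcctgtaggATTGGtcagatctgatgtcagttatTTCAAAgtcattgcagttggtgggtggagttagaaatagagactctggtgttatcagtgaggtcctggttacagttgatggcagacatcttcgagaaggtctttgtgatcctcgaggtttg
The Anapc10 promoter lies at chr19:45109833-45110132 on the minus strand and holds 1 half-site and 1 CCAAT box. That of Fbxo5 lies at chr1:44607732-44608031 on the minus strand and holds 3 CCAAT boxes and 1 cell cycle homology region. The Fbxo17 promoter, at chr1:93136321-93136620 on the plus strand, holds 1 half-site. The Cul4b promoter, at chrX:122192250-122192549 on the minus strand, holds 2 CCAAT boxes and 1 cell cycle homology region. A promoter was found for 50 of the 61 members. The half-site TGACG, or CGTCA on the other strand, was present in 24 of these 50 promoters (48%), in 21.2% of all 33469 promoters in the table and in 26.2% of the 12233 promoters of measured genes. The full element TGACGTCA, which contains the half-site, was present in 1 of the 50 (Fbxw9), in 1.83% of all promoters and in 2.47% of those of measured genes. CCAAT was present in 16 of the 50 (32%), against 37.5% of all and 38.2% of measured promoters. TTTGAA was present in 6 of the 50 (12%), against 18.3% and 15.1%. A match describes these letters only.

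No member passed in any comparison. One linear model was fitted over all 14168 genes with limma, and the threshold was 0.05 on the p adjusted by Benjamini and Hochberg's method. In dDAVP against vehicle 0 of 61 members passed, and 0% of all genes, with a smallest adjusted p among members of 0.549 (limma). In withdrawal against dDAVP the count was 0 members and 0% of genes, with a smallest adjusted p of 0.260 (limma), and in withdrawal against vehicle 0 members and 0% of genes, with 0.995. The moderated F-test over the 3 groups called 0 members and 0% of genes, with a smallest adjusted p of 0.489 (limma). At an unadjusted p under 0.05 the F-test held 3 members, Anapc10, Fbxo17 and Fbxo39, beside 8.64% of all genes. Every difference below is therefore a value that did not pass, and none is called a change.

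At an unadjusted p under 0.05, which is no call, dDAVP against vehicle held 0 members above and 4 below vehicle, beside 0.572% and 6.85% of all genes. These 4 were Anapc10, Fbxl19, Fbxo17 and Fbxo24, or 6.56% of the members, a share near the background. Withdrawal against dDAVP held 6 members above dDAVP, beside 17.3% of all genes, and 2 below, beside 1.64%. The 6 were Anapc10, Fbxl13, Fbxo5, Fbxo17, Fbxo39 and Fbxo43, and the 2 were Anapc16 and Fbxl20. Withdrawal against vehicle held 0 members above and 1 below, Fbxo8, beside 0.642% and 1.14% of all genes. After cyclic loess, a scaling that removes any drift of an array with the level of its genes, dDAVP against vehicle held Fbxo46 above (1.77% of all genes) and Anapc10 below (1.52%). Withdrawal against dDAVP then held Anapc10 and Fbxo5 above (2.92%) and Anapc16, Fbxl20 and Fbxo46 below (3.73%), and withdrawal against vehicle held 0 members above (0.649%) and Fbxo8 below (1.5%). With array medians subtracted the directions turned, to 3 above and 1 below in dDAVP against vehicle and 0 above and 13 below in withdrawal against dDAVP. The share of all genes at this p is not given for that scaling, so these counts are not read as a trait of the members. Under it, all genes above the median level of all genes had median differences of 0.111 and -0.145 log2 in these comparisons. Members at least 1.5-fold apart numbered 0 in each of the 3 comparisons, beside 0.466%, 1.76% and 1.07% of all genes in the order given. The first and second comparisons share the dDAVP arrays, so a low dDAVP value enters both with opposite signs.

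The 61 members, of which 42 lie above the median level of all genes, were not matched by level to other genes. Without such matching, the members varied about as much between arrays as all genes did. Their median residual SD within groups was 0.121 log2, against 0.115 for all genes, and their median range over the 6 arrays was 0.369 log2, the same as that of all genes. A range of 1 log2 or more was found in 1 member (1.64%), Cul4b, and in 3.4% of all genes. In the heat map of all members, both dDAVP arrays lay below the other 4 in 12 rows, beside 33.6% of all genes, and above them in 3, beside 3.14%. Both withdrawal arrays lay above the other 4 in 6 rows, beside 14.7%, and below in 3, beside 3.9%. Both vehicle arrays lay above in 3, beside 4.71%, and below in 0, for which no share of all genes is given. Some rows, such as Fbxo17, are in more than 1 of these counts.

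**Figure D1:**
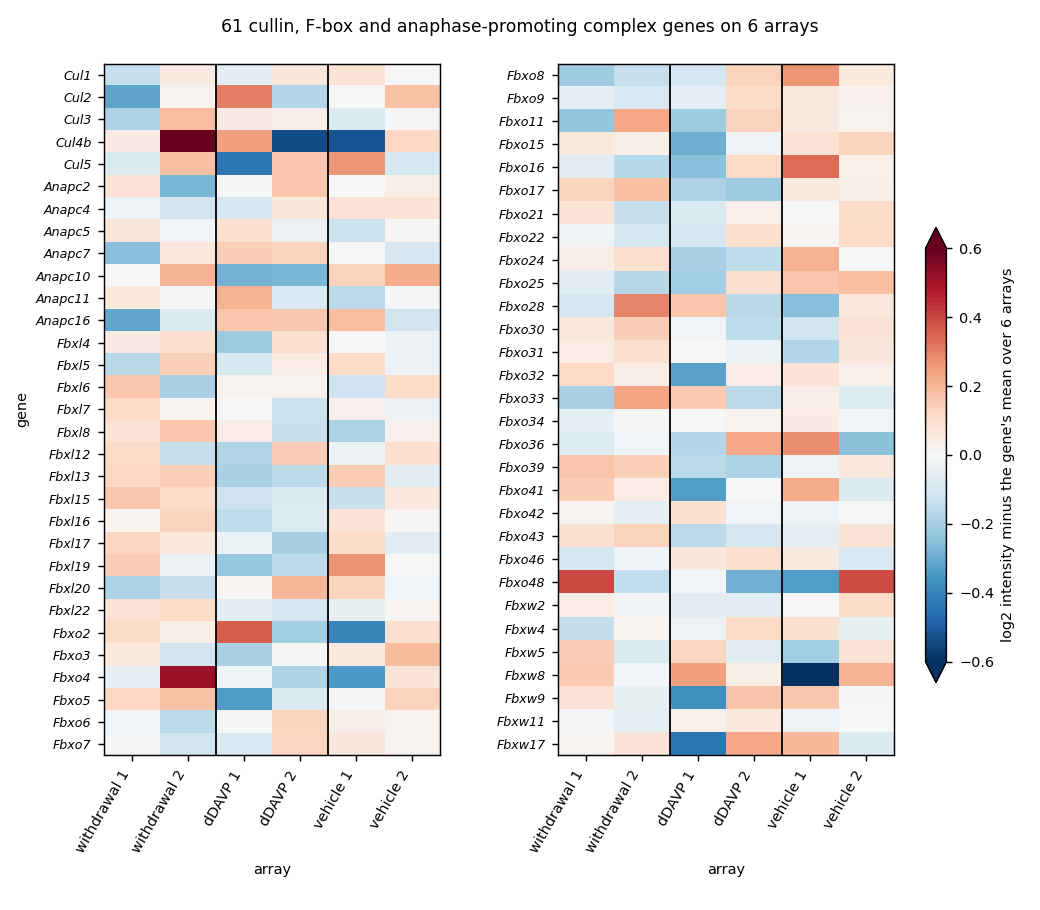
Heat map of the 61 members (rows, by family and number) on the 6 arrays (columns, withdrawal, dDAVP and vehicle from left to right), coloured by log2 intensity minus the gene's own mean over the 6 arrays, with colours ending at 0.6 either way. Anapc10 and Fbxo17 are blue on both dDAVP arrays, while Cul4b and Fbxw8 hold the darkest single cells.

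Among the anaphase-promoting complex subunits, Anapc10 stood lowest under dDAVP. Anapc10 is the small subunit that, with a coactivator, holds the destruction motif of the substrate. Its log2 intensity was 8.99 and 9.19 after withdrawal, 8.71 and 8.72 under dDAVP and 9.13 and 9.22 under vehicle. Both dDAVP arrays lay below the other 4. The mean was 8.71 ± 0.007 under dDAVP and 9.17 ± 0.063 under vehicle (SD, n = 2 each), a difference of -0.46 ± 0.11 log2 (SE), or 0.727-fold, with an adjusted p of 0.549 (limma) and an unadjusted p of 0.0045. Withdrawal against dDAVP differed by 0.38 ± 0.11 log2, or 1.30-fold, with an adjusted p of 0.260 (limma). Withdrawal against vehicle differed by -0.081 log2, with a 95% interval of -0.339 to 0.176. With each array left out in turn, the dDAVP difference ran from -0.505 to -0.416 log2.

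The catalytic pair of the complex, the cullin-like Anapc2 and the RING subunit Anapc11, showed no split by group. Anapc2 was at 10.15 and 9.79 log2 after withdrawal, 10.05 and 10.23 under dDAVP and 10.06 and 10.09 under vehicle. Anapc11 was at 10.41 and 10.33 after withdrawal, 10.55 and 10.25 under dDAVP and 10.18 and 10.33 under vehicle. Their differences in dDAVP against vehicle were 0.061 ± 0.143 and 0.14 ± 0.13 log2, and the arrays of the groups overlapped for both.

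Anapc7, a repeat subunit of the arm that receives coactivators, ran opposite to Anapc10. It was at 9.13 and 9.45 log2 after withdrawal, 9.53 and 9.52 under dDAVP and 9.38 and 9.28 under vehicle, so both dDAVP arrays lay above the other 4. The differences were 0.20 ± 0.13 log2 in dDAVP against vehicle and -0.24 ± 0.13 log2 in withdrawal against dDAVP, with unadjusted p of 0.171 and 0.107 and adjusted p of 0.559 and 0.315 (limma). Without withdrawal array 1 the second difference was -0.081 log2. Anapc16, one of the smallest subunits, was at 10.10 and 10.33 log2 after withdrawal, 10.58 and 10.58 under dDAVP and 10.60 and 10.30 under vehicle. Withdrawal lay below dDAVP by -0.36 ± 0.14 log2, with an adjusted p of 0.260 (limma), but vehicle array 2 lay below withdrawal array 2. Without withdrawal array 1 this difference was -0.247 log2, and without withdrawal array 2 it was -0.477.

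The platform subunits Anapc4 and Anapc5 stayed within a narrow range. Anapc4 was at 10.82 and 10.73 log2 after withdrawal, 10.74 and 10.91 under dDAVP and 10.93 and 10.92 under vehicle, and both vehicle arrays lay above the other 4, as in 4.71% of all genes. Anapc5 was at 11.29 and 11.20 after withdrawal, 11.32 and 11.19 under dDAVP and 11.09 and 11.22 under vehicle. Over the 7 subunits, the median difference was 0.096 log2 in dDAVP against vehicle (5 above 0 and 2 below), against -0.041 for all genes above the median level, where all 7 subunits lie. It was -0.053 in withdrawal against dDAVP (1 above and 6 below), against 0.032 for those genes, and -0.081 in withdrawal against vehicle (2 above and 5 below), against -0.004.

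**Figure D2:**
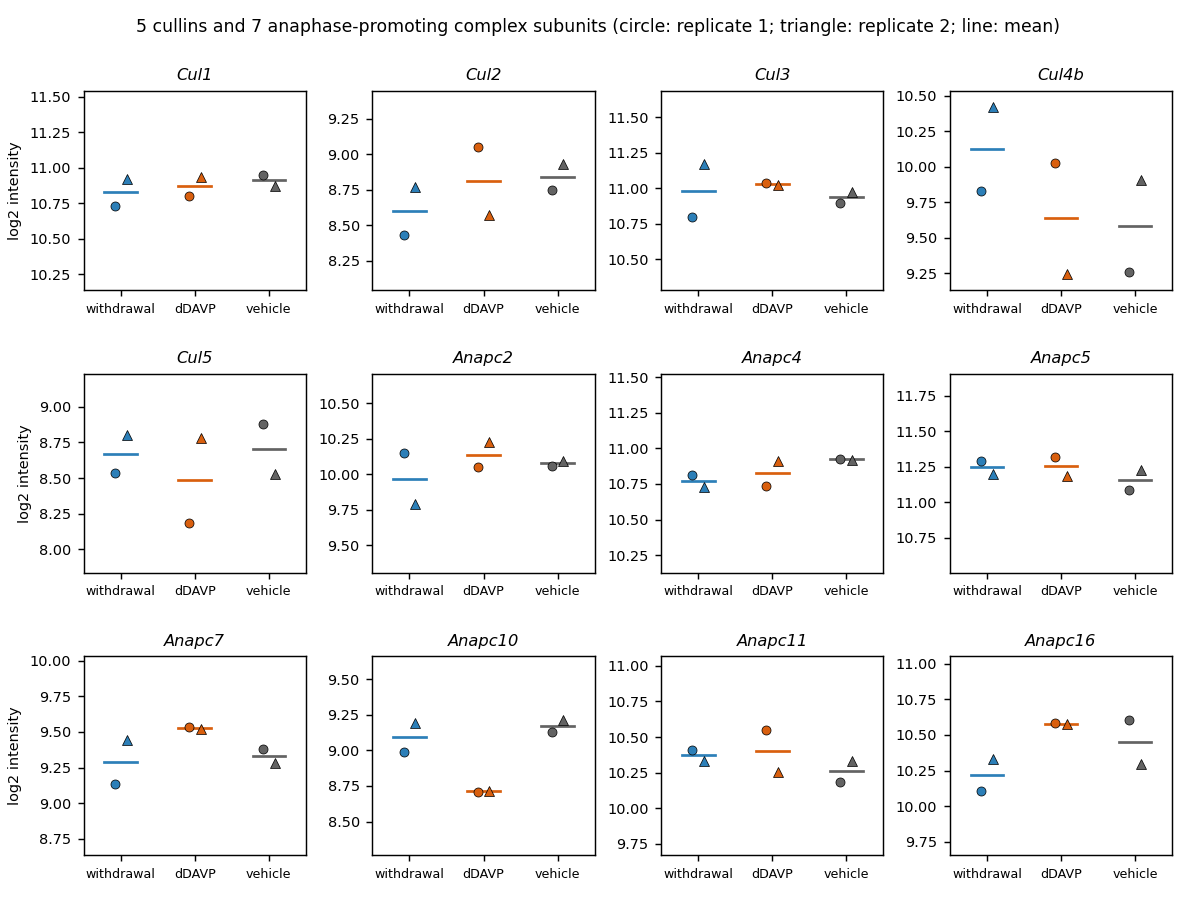
Log2 intensity (vertical axis, spanning 1.4 log2 in each panel) of the 5 cullins and 7 Anapc subunits on the 2 withdrawal, 2 dDAVP and 2 vehicle arrays; circles are replicate 1, triangles replicate 2 and lines the mean of 2. The 2 dDAVP points of Anapc10, at 8.71 and 8.72, lie below its other 4, and the Cul4b points of each group lie far apart.

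The 5 cullins measured were Cul1, Cul2, Cul3, Cul4b and Cul5. Cul1, the scaffold of the SCF ligases, was at 10.73 and 10.92 log2 after withdrawal, 10.80 and 10.93 under dDAVP and 10.95 and 10.87 under vehicle. Its difference in dDAVP against vehicle was -0.043 log2, with a 95% interval of -0.310 to 0.225. Cul3, the scaffold for BTB adaptors such as the Kelch proteins that act on WNK kinases in the distal nephron, was at 10.80 and 11.17 after withdrawal, 11.03 and 11.02 under dDAVP and 10.90 and 10.98 under vehicle. The dDAVP arrays of Cul3 lay above the vehicle arrays, by 0.091 log2, with a 95% interval of -0.241 to 0.422.

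Cul2, which works with the elongins and Vhl, was at 8.43 and 8.77 log2 after withdrawal, 9.05 and 8.57 under dDAVP and 8.75 and 8.93 under vehicle. Cul5, which takes SOCS-box receptors, was at 8.54 and 8.80 after withdrawal, 8.19 and 8.78 under dDAVP and 8.88 and 8.53 under vehicle. For both the groups overlapped in dDAVP against vehicle, and the 2 dDAVP arrays differed more from each other than the group means did.

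Cul4b, the X-linked cullin that binds Ddb1, varied most of all members. Its level was 9.83 and 10.42 log2 after withdrawal, 10.03 and 9.25 under dDAVP and 9.26 and 9.91 under vehicle, a range of 1.18 log2 or 2.26-fold. Its lowest arrays were dDAVP 2 and vehicle 1, the same pair in which Cdk1 was lowest. The difference was 0.49 ± 0.34 log2 in withdrawal against dDAVP and 0.54 ± 0.34 in withdrawal against vehicle, with adjusted p of 0.408 and 0.995 (limma). Without those 2 arrays they were 0.098 and 0.217 log2. RefSeq names a pseudogene copy for 6 members, Cul4b, Cul2, Fbxo5, Fbxo22, Fbxw2 and Fbxw11, and whether the probes of these genes also take up a copy was not tested.

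The inhibitors of the anaphase-promoting complex among the F-box genes are Fbxo5 (Emi1, which holds the complex inactive in S and G2 phase) and Fbxo43 (Emi2, known from meiosis in vertebrate eggs). Fbxo5 was at 8.82 and 8.87 log2 after withdrawal, 8.36 and 8.62 under dDAVP and 8.69 and 8.84 under vehicle. Both dDAVP arrays lay below the other 4. Its differences were -0.27 ± 0.12 log2 in dDAVP against vehicle and 0.36 ± 0.12 in withdrawal against dDAVP, or 0.827-fold and 1.28-fold, with adjusted p of 0.549 and 0.260 (limma). Vehicle array 1, lowest but one in Cdk1, held more Fbxo5 than either dDAVP array. Without vehicle array 1 and dDAVP array 2 the differences were -0.474 and 0.486 log2, and without dDAVP array 1 they were -0.146 and 0.232.

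Fbxo43 was dim on all arrays, at 6.61 and 6.65 log2 after withdrawal, 6.36 and 6.42 under dDAVP and 6.46 and 6.60 under vehicle. It lay 0.24 ± 0.095 log2 higher after withdrawal than under dDAVP, with an adjusted p of 0.260 (limma), and only 0.037 higher after cyclic loess.

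The other F-box genes lowest on both dDAVP arrays were also mostly dim. Fbxo17, of the sugar-binding F-box group, was at 7.13 and 7.18 log2 after withdrawal, 6.81 and 6.79 under dDAVP and 7.05 and 7.03 under vehicle. Its differences were -0.24 ± 0.086 log2 in dDAVP against vehicle and 0.35 ± 0.086 in withdrawal against dDAVP. After cyclic loess they were -0.073 and 0.14 log2. Fbxl19, whose protein has a zinc finger for unmethylated CpG, was at 7.55 and 7.36 after withdrawal, 7.17 and 7.24 under dDAVP and 7.67 and 7.40 under vehicle, a dDAVP difference of -0.33 ± 0.13 log2 (-0.17 after cyclic loess).

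Fbxo24 was at 6.54 and 6.60 log2 after withdrawal, 6.31 and 6.35 under dDAVP and 6.71 and 6.51 under vehicle. Fbxo39 was at 6.94 and 6.91 after withdrawal, 6.61 and 6.58 under dDAVP and 6.74 and 6.83 under vehicle. Fbxl13 was at 6.29 and 6.31 after withdrawal, 5.97 and 6.01 under dDAVP and 6.32 and 6.10 under vehicle. In all 3 both dDAVP arrays were the lowest. Withdrawal lay above vehicle in Fbxo39, while these groups overlapped in Fbxl13 and Fbxo24. Fbxo39 differed by 0.33 ± 0.089 log2 in withdrawal against dDAVP. After cyclic loess this difference was 0.115 log2, and the dDAVP and vehicle arrays of Fbxo39 overlapped. In Fbxl13 and Fbxo24, withdrawal against dDAVP then gave 0.128 and 0.037 log2, and both dDAVP arrays were still the lowest. Fbxo15, known in mouse as a gene of embryonic stem cells, was at 7.09 and 7.06 after withdrawal, 6.74 and 7.01 under dDAVP and 7.12 and 7.16 under vehicle.

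Both dDAVP arrays lay below the other 4 in 12 members (19.7%), beside 33.6% of all genes. These shares cannot show whether the pattern was more or less common here, since the mix of levels differs. Of the 61 members 42 lie above the median level, against 7084 of the 14168 genes. Genes of like level were not compared for this pattern. Both lay above the other 4 in 3 members, Anapc7, Fbxo46 and Fbxw11 (4.92%), beside 3.14%. After cyclic loess the low pattern held in 4 members, Anapc10, Fbxl13, Fbxo5 and Fbxo24, beside 8.83% of all genes, and the high pattern in 4, with Fbxo42 added, beside 8.06%.

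The median difference of the members differed with their level, while the largest single differences, such as those of Anapc10, Fbxw8 and Cul4b, belonged to members above the median level. The 19 members below the median level of all genes (7.96 log2) had a median of -0.181 log2 in dDAVP against vehicle, with 17 of 19 below 0, and all genes below that level had -0.16. The 42 members above it had a median of 0.006 log2, with 21 above 0 and 21 below, and all genes above it had -0.041. In withdrawal against dDAVP the dim members had a median of 0.218 log2, with 16 of 19 above 0, beside 0.207 for dim genes in general. After cyclic loess the dim members had medians of -0.023 and 0.037 log2. The dDAVP arrays also had the lowest median intensity, given above, and the part of that in these differences was not tested.

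**Figure D3:**
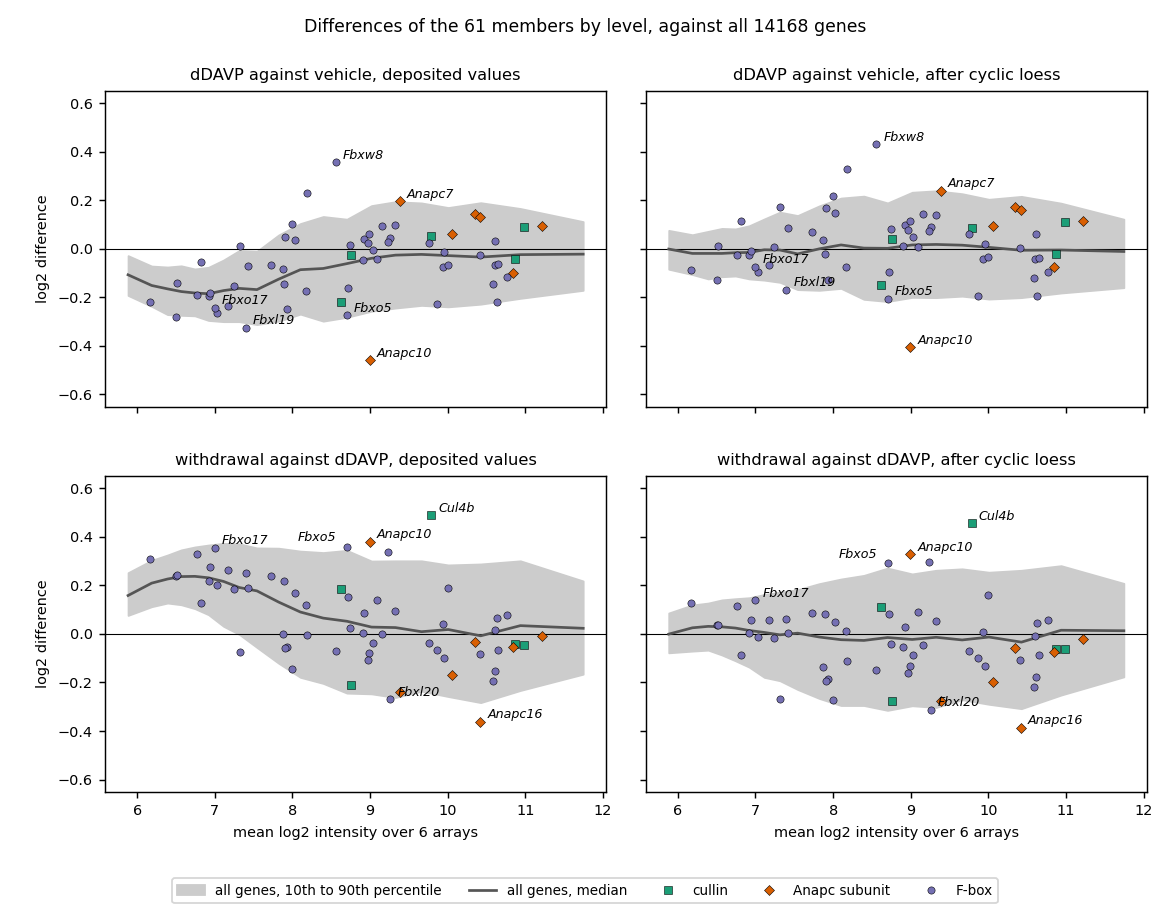
Log2 difference (vertical axis) of each member by its mean log2 intensity over 6 arrays (horizontal axis), in dDAVP against vehicle (top) and withdrawal against dDAVP (bottom), from the deposited values (left) and after cyclic loess (right). The line and the grey band give the median and the 10th to 90th percentile of all genes in 20 bins of level. On the left they bend away from 0 for dim genes. In the top right panel Anapc10, at -0.406 log2, is among the members below the band. Fbxo5, at -0.206, lies within it, where the 10th percentile is -0.217. Fbxw8 (0.43) and Fbxo2 (0.327) are among the members above the band.

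Over all 61 members the median difference was -0.056 log2 in dDAVP against vehicle, 0.023 in withdrawal against dDAVP and -0.02 in withdrawal against vehicle. For all genes these medians were -0.115, 0.143 and 0.028 log2. Differences were above 0 in 23 members and below 0 in 38 in the first comparison (22.1% and 77.9% of all genes), 34 and 27 in the second (74.9% and 25.1%) and 27 and 34 in the last (59.5% and 40.5%). After cyclic loess the medians of the members were 0.011, -0.023 and -0.024 log2, and with each array's median over all probe sets subtracted they were 0.096, -0.154 and -0.045. Under that subtraction the medians were 0.037, -0.034 and 0.003 log2 for all genes. For all genes above the median level they were 0.111, -0.145 and -0.029. The sign of the members' median in the first and second comparisons thus turned with the scaling, and under median subtraction that of all genes turned too. In dDAVP against vehicle, 26 members were below 0 after cyclic loess (35 above) and 18 after median subtraction (43 above). Anapc10 and Fbxo5 were among those below 0 under both scalings. They were at -0.406 and -0.206 log2 after cyclic loess and -0.309 and -0.122 after median subtraction. This was not particular to them, as Fbxl19 (-0.17 and -0.174) and Fbxo24 (-0.127 and -0.128) also stayed below 0.

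The 13 Fbxl genes, whose receptors carry leucine-rich repeats, had medians of -0.065 log2 in dDAVP against vehicle and 0.17 in withdrawal against dDAVP, which became 0.01 and 0.003 after cyclic loess. Fbxl20, known for acting on a synaptic release protein, was at 9.07 and 9.12 log2 after withdrawal, 9.27 and 9.45 under dDAVP and 9.39 and 9.24 under vehicle. Both withdrawal arrays of Fbxl20 lay below the other 4, by -0.27 ± 0.11 log2 from dDAVP and -0.22 ± 0.11 from vehicle. It was the one member with a second probe set, which gave -0.141 and -0.119 log2. On that probe set the groups overlapped. Withdrawal array 2, at 7.361 log2, lay above dDAVP array 1 (7.316) and vehicle array 2 (7.302). Fbxl5, the iron-sensing receptor for Ireb2, was at 10.44 and 10.75 after withdrawal, 10.51 and 10.65 under dDAVP and 10.72 and 10.57 under vehicle, with no split. Fbxl15, which acts on the ligase Smurf1, was at 7.88 and 7.84 after withdrawal, 7.60 and 7.64 under dDAVP and 7.59 and 7.78 under vehicle, and its withdrawal arrays lay above the other 4.

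The withdrawal arrays of 6 members lay above the other 4 (Fbxl8, Fbxl15, Fbxl22, Fbxo17, Fbxo39 and Fbxo43), beside 14.7% of all genes. After cyclic loess 3 members had this pattern, beside 7.54% of all genes: Fbxl15, the 1 in common with the 6, Fbxo5 and Fbxo30. Fbxl22, known from heart muscle, was at 7.51 and 7.54 log2 after withdrawal, 7.35 and 7.32 under dDAVP and 7.38 and 7.43 under vehicle. Fbxl8 was at 8.11 and 8.19 after withdrawal, 8.07 and 7.89 under dDAVP and 7.84 and 8.05 under vehicle. They lay below the other 4 in 3 members, Fbxl20, Fbxo6 and Fbxo8, beside 3.9% of all genes, and after cyclic loess also in 3, with Fbxo9 in place of Fbxo6, beside 7.57%.

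Fbxo8, whose protein carries a Sec7 domain of the kind found in Arf regulators, was at 10.37 and 10.44 log2 after withdrawal, 10.48 and 10.72 under dDAVP and 10.85 and 10.64 under vehicle. It differed by -0.34 ± 0.13 log2 in withdrawal against vehicle, or 0.790-fold, with an adjusted p of 0.995 (limma) and an unadjusted p of 0.0347. Without vehicle array 1 the difference was -0.236 log2. Fbxo25 was at 9.80 and 9.70 after withdrawal, 9.66 and 9.97 under dDAVP and 10.03 and 10.05 under vehicle, a withdrawal difference from vehicle of -0.295 ± 0.125 log2. Fbxo16 was at 7.87 and 7.76 after withdrawal, 7.68 and 8.05 under dDAVP and 8.27 and 7.96 under vehicle. Fbxo3 was at 10.69 and 10.51 after withdrawal, 10.43 and 10.63 under dDAVP and 10.69 and 10.82 under vehicle. In withdrawal against vehicle the groups did not overlap for Fbxo16, Fbxo8 and Fbxo25, and overlapped for Fbxo3.

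Arrays of the compared groups did not overlap, with dDAVP below vehicle, in 15 members, beside 40.6% of all genes, and with dDAVP above in 4 (Anapc7, Cul3, Fbxo46 and Fbxw11), beside 4.8%. Withdrawal lay above dDAVP without overlap in 19 members, beside 49.6%, and below in 7, beside 8.06%. Against vehicle, withdrawal lay above in 7 members, beside 17.6%, and below in 10, beside 13.1%. Cyclic loess turned the balance in withdrawal against dDAVP, with 9 members above (20.8% of all genes) and 13 below (18.2%). In dDAVP against vehicle it left 6 above (14.1%) and 8 below (16%), and in withdrawal against vehicle 8 above (15%) and 11 below (17.1%).

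The F-box receptors of glycoproteins, Fbxo2 and Fbxo6, bind N-glycans of proteins returned from the endoplasmic reticulum. Fbxo2 was at 8.29 and 8.22 log2 after withdrawal, 8.54 and 7.98 under dDAVP and 7.79 and 8.28 under vehicle, lowest on dDAVP array 2 and vehicle array 1. Fbxo6 was at 10.59 and 10.45 after withdrawal, 10.60 and 10.74 under dDAVP and 10.64 and 10.63 under vehicle, with withdrawal lowest by -0.15 ± 0.10 log2 from dDAVP.

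Receptors that act on cell cycle and signalling proteins had no adjusted p under the threshold. Fbxw11 (a beta-TrCP protein, which acts on beta-catenin and the inhibitor of NF-kappaB) was at 8.97 and 8.93 log2 after withdrawal, 9.02 and 9.05 under dDAVP and 8.97 and 8.98 under vehicle, with dDAVP above vehicle by only 0.059 ± 0.086 log2. Fbxo31, a receptor for cyclin D1, was at 8.96 and 9.01 after withdrawal, 8.92 and 8.89 under dDAVP and 8.74 and 8.99 under vehicle. Fbxo11 was at 9.70 and 10.17 after withdrawal, 9.72 and 10.07 under dDAVP and 9.99 and 9.96 under vehicle. Fbxo22, a receptor for histone demethylases, was at 10.62 and 10.54 after withdrawal, 10.55 and 10.75 under dDAVP and 10.66 and 10.76 under vehicle.

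Fbxo32 (atrogin-1, induced in wasting muscle) was at 7.04 and 6.96 log2 after withdrawal, 6.60 and 6.97 under dDAVP and 7.01 and 6.95 under vehicle, low on dDAVP array 1 alone. Fbxo7, a gene linked to a parkinsonian syndrome in humans, was at 10.40 and 10.29 after withdrawal, 10.32 and 10.54 under dDAVP and 10.48 and 10.43 under vehicle. Fbxw5 was at 9.30 and 9.07 after withdrawal, 9.28 and 9.09 under dDAVP and 8.95 and 9.24 under vehicle. None of the 3 was separated between dDAVP and vehicle. Fbxo46 was at 7.89 and 7.98 after withdrawal, 8.07 and 8.09 under dDAVP and 8.05 and 7.90 under vehicle. It differed by 0.10 ± 0.098 log2 in dDAVP against vehicle, and by 0.22 after cyclic loess with an unadjusted p of 0.0381. Fbxo9 was at 9.90 and 9.86 after withdrawal, 9.89 and 10.06 under dDAVP and 10.01 and 9.98 under vehicle.

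**Figure D4:**
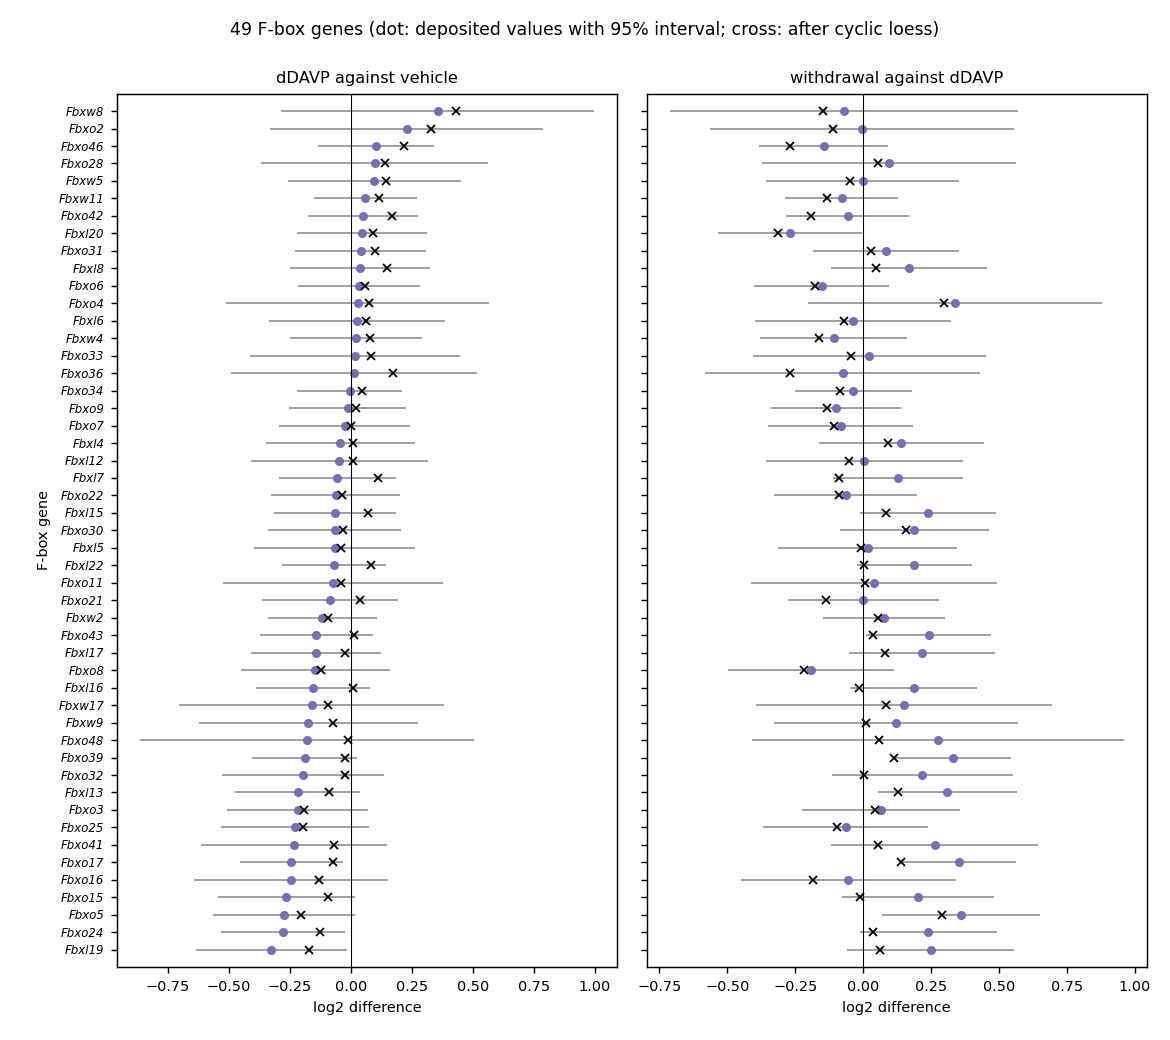
Log2 difference (horizontal axis) of the 49 F-box genes (rows, ordered by the first panel) in dDAVP against vehicle (left) and withdrawal against dDAVP (right); dots with lines are the deposited values with their 95% interval, not adjusted for the number of genes, and crosses the values after cyclic loess. Most lines cross 0, and the crosses of dim genes such as Fbxo39 and Fbxo43 lie closer to 0 than their dots.

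Several F-box genes varied with single arrays instead of groups. Fbxw8, the partner of Cul7, was at 8.72 and 8.54 log2 after withdrawal, 8.80 and 8.60 under dDAVP and 7.93 and 8.77 under vehicle. Its dDAVP difference of 0.36 ± 0.26 log2 was the largest positive one among members and came to -0.064 without vehicle array 1. Fbxo4, another receptor for cyclin D1, was at 9.18 and 9.75 after withdrawal, 9.21 and 9.05 under dDAVP and 8.89 and 9.31 under vehicle. Fbxo48 was at 7.34 and 6.79 after withdrawal, 6.93 and 6.65 under dDAVP and 6.61 and 7.33 under vehicle.

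Fbxo36 ran the other way, at 7.24 and 7.30 log2 after withdrawal, 7.15 and 7.55 under dDAVP and 7.60 and 7.07 under vehicle. Fbxw17 was at 8.73 and 8.79 after withdrawal, 8.27 and 8.95 under dDAVP and 8.91 and 8.63 under vehicle. In 10 members, Cul4b, Anapc5, Anapc11, Fbxo2, Fbxo4 and Fbxo48 among them, vehicle array 1 and dDAVP array 2 were the lowest of the 6, beside 12.7% of all genes. In 12 members, among them Cul1, Fbxl20, Fbxo8, Fbxo36 and Fbxw17, these arrays were the highest, beside 10.9%. Cdk1 and the mitotic list moved with this split, and their part in these values was not tested.

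**Figure D5:**
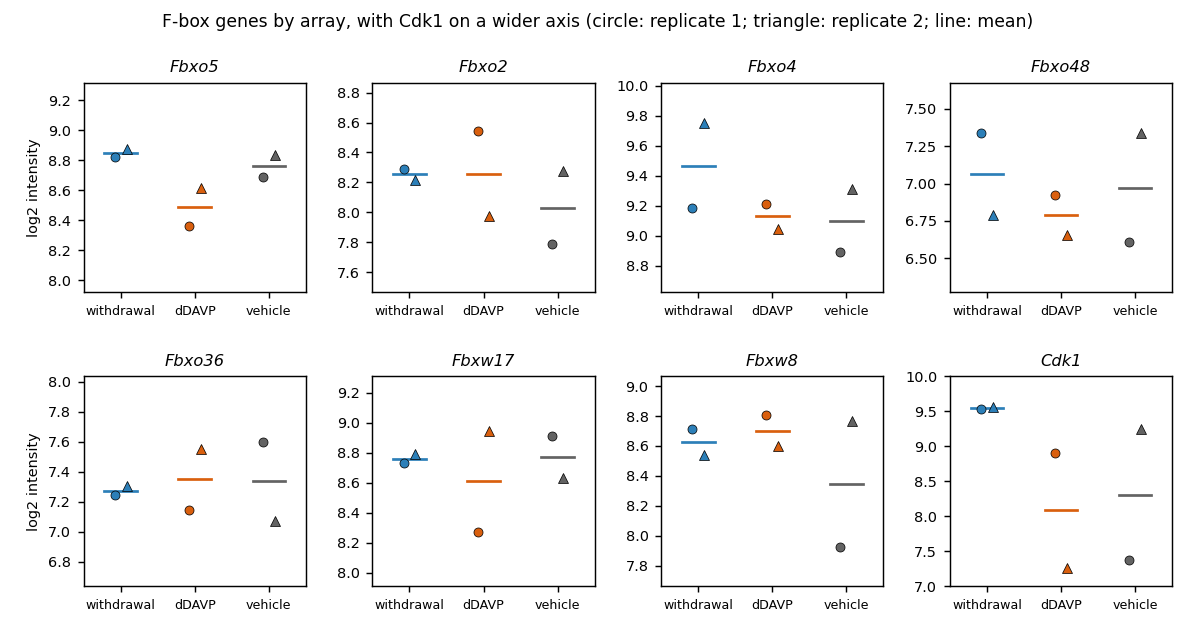
Log2 intensity (vertical axis, spanning 1.4 log2 for the F-box genes and 3 log2 for Cdk1) of 7 F-box genes and of Cdk1 on the 2 withdrawal, 2 dDAVP and 2 vehicle arrays; circles are replicate 1, triangles replicate 2 and lines the mean of 2. Fbxo5 is lowest on the 2 dDAVP arrays, whereas Fbxo2, Fbxo4, Fbxo48 and Cdk1 are lowest on dDAVP 2 and vehicle 1.

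Partners of the members were read from fixed lists, and 0 genes of any list passed in any comparison (limma). For all genes the medians were -0.115, 0.143 and 0.028 log2, and -0.006, 0.004 and 0 after cyclic loess. The core and adaptors of the cullin-RING ligases, 13 of 19 measured, had median differences of -0.055 log2 in dDAVP against vehicle (3 above 0 and 10 below), 0.077 in withdrawal against dDAVP (11 and 2) and 0.015 in withdrawal against vehicle (7 and 6). Ccnf, itself an F-box protein under another name, differed by 0.44 log2 and Socs3, a receptor for Cul5, by 0.40 log2 in withdrawal against dDAVP. Both genes are dim, and after cyclic loess they differed by 0.23 and 0.19 log2. Enzymes of neddylation, which switches cullins on, and of the COP9 signalosome, which switches them off, were measured for 20 of 22. Their medians were -0.039 (7 above and 13 below), 0.005 (10 and 10) and -0.025 log2 (7 and 13) in the same order. After cyclic loess they were 0.022 (11 and 9), -0.066 (7 and 13) and -0.057 log2 (7 and 13), so that the sign turned in the first and second. Cops7a, a signalosome subunit, was at 10.42 and 10.37 log2 after withdrawal, 10.61 and 10.74 under dDAVP and 10.37 and 10.44 under vehicle, both dDAVP arrays above the other 4. Its differences were 0.27 and -0.28 log2 in the first and second comparisons. Dcun1d4, a neddylation cofactor, differed by -0.31 log2 in dDAVP against vehicle.

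Among the ubiquitin-conjugating enzymes, 7 of 8 measured, the medians were 0.016 (4 above and 3 below), 0.091 (4 and 3) and 0.084 log2 (5 and 2). Ube2c, which starts chains for the anaphase-promoting complex, differed by 0.38 log2 in withdrawal against dDAVP (0.20 after cyclic loess). Subunits, activators and inhibitors of that complex under other symbols, 10 of 10 measured, had medians of -0.095 (1 above and 9 below), 0.158 (6 and 4) and 0.04 log2 (5 and 5). Cdc23, a repeat subunit like Anapc7, was at 9.05 and 8.99 log2 after withdrawal, 9.15 and 9.40 under dDAVP and 9.36 and 9.29 under vehicle, a difference of -0.30 log2 in withdrawal against vehicle.

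Substrates of the anaphase-promoting complex and mitotic genes were the list farthest from 0. All 13 measured (of 14) lay below vehicle in dDAVP arrays, with a median of -0.227 log2, and above dDAVP after withdrawal, with a median of 0.743. Against vehicle, withdrawal lay above in 13 of 13, with a median of 0.616. After cyclic loess 11 of the 13 lay below vehicle under dDAVP, with a median of -0.148, and the other medians were 0.661 and 0.591, with 13 of 13 above 0. The spread inside the groups was as wide: the summed intensity of the list was 7366.2 and 6445.9 after withdrawal, 5067.3 and 2441.9 under dDAVP and 2714.8 and 6527.4 under vehicle. Top2a, a topoisomerase of dividing cells, was at 9.28 and 8.86 log2 after withdrawal, 8.59 and 6.83 under dDAVP and 7.07 and 9.03 under vehicle. Aurkb, a mitotic kinase, differed by 0.74 log2 in withdrawal against dDAVP, with an unadjusted p of 0.0092, and by 0.57 after cyclic loess. The 7 Anapc subunits did not share this direction as a group, with 1 above 0 and 6 below in withdrawal against dDAVP.

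Known substrates of SCF and other cullin ligases, 18 of 18 measured, had medians of -0.069 (5 above and 13 below), 0.211 (14 and 4) and 0.189 log2 (13 and 5) in the 3 comparisons. After cyclic loess they were 0.007 (10 and 8), 0.144 (12 and 6) and 0.19 log2 (12 and 6), so that the sign turned in the first. Cdt1, the replication licensing factor, was at 7.61 and 7.70 log2 after withdrawal, 7.12 and 6.88 under dDAVP and 7.21 and 7.52 under vehicle, differences of -0.36 log2 in dDAVP against vehicle and 0.66 in withdrawal against dDAVP. Cry2, a clock repressor, was at 8.48 and 8.13 after withdrawal, 8.83 and 9.01 under dDAVP and 8.72 and 8.63 under vehicle, a difference of -0.62 log2 in withdrawal against dDAVP. Cdkn1a, a cell cycle inhibitor, was at 8.81 and 10.08 after withdrawal, 7.68 and 7.85 under dDAVP and 8.08 and 9.32 under vehicle, and it differed by -0.94 log2 in dDAVP against vehicle and by 1.68 in withdrawal against dDAVP. At an unadjusted p under 0.05, dDAVP against vehicle held Cops7a above and Dcun1d4 and 1 SCF substrate, Cdt1, below, over the 6 lists of partners. Of all genes, 0.572% were above and 6.85% below at this p. Withdrawal against dDAVP held 5 SCF substrates above and 1 below, Ccnf, Socs3, Ube2c and Aurkb above, and Cops7a below, beside 17.3% of all genes above and 1.64% below. After cyclic loess it held 3 SCF substrates above, beside 2.92% of all genes. Below dDAVP it held 1 SCF substrate, 1 gene of the neddylation list and 1 of the anaphase-promoting complex list under other symbols, beside 3.73%. Ccnf, Socs3, Ube2c and Aurkb were then no longer among those with an unadjusted p under 0.05. Dcun1d4 and Cdt1 came to -0.20 and -0.21 log2 in dDAVP against vehicle after cyclic loess. Withdrawal against vehicle held 0 genes above and Cdc23 and Cry2 below, beside 0.642% of all genes above and 1.14% below. Transcript levels of substrates say nothing of their breakdown, which arrays do not measure.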

How the data were processed

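Values were made by the authors with RMA (submitters' processing notes, no version named) and deposited as linear intensities (30.18 to 10778.65), 1 for each probe set on each array. Log2 was taken here, although the plan had assumed log2 values. For the genome build, the sources used here name none. Of 28524 probe sets, 14947 had 1 gene symbol in the platform annotation, 318 had several and 13259 were not listed. Each gene was read from its brightest probe set by the mean of all arrays, with no filter on dim genes. No detection calls were used here, so distance from background is unknown, and 2 arrays per group limit the precision.

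The 3 comparisons and 1 F-test were made in limma 3.58.1 under R 4.3.3 (lmFit with 1 mean per group over 6 arrays, eBayes, 3 residual and 3.21 prior degrees of freedom), two-sided, with Benjamini-Hochberg adjustment over all 14168 genes. The fit was tested on simulated data. The 17 alternatives included other scalings, dropping the dimmest 25% of genes, an offset of 50 and leaving out each array. All 61 members matched RefSeq by Entrez number.

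Named were all cullins and Anapc subunits and, of the F-box genes, the 5 higher and 5 lower with the smallest p per comparison, the 6 of widest range and 15 measured of 20 with textbook roles. Of the lists of partners, at most the 2 genes of smallest p per comparison were named, with Cdk1, Top2a and Aqp2. Members and lists were chosen with earlier results of these data known.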

Additional observations from a re-analysis of the deposited data

How the results depend on the processing

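No member passed the adjusted threshold in any comparison under any of the 17 alternatives, and of 2232 differences of named members under them 137 changed sign. Some alternatives, such as a block or the array weights, leave a difference as it was, so no sign could turn under them. Under cyclic loess or median subtraction, 28 of 264 differences changed sign. The number of members with an unadjusted p under 0.05 also moved. In dDAVP against vehicle (4 in the report) it was 2 after cyclic loess, 2 without the dimmest genes, 1 with only the groups compared and 1 to 11 with each array left out, the 11 without dDAVP array 2. With array medians subtracted it was again 4, but 3 higher and 1 lower, against 0 and 4. In withdrawal against dDAVP (8) it was 5 after cyclic loess, 13 with array medians subtracted (0 higher and 13 lower, against 6 and 2 in the report), 4 without the dimmest genes and 3 to 11 with each array left out. In withdrawal against vehicle (1) it was 3 with array medians subtracted, 2 with only the groups compared, 2 with an offset of 50, 0 without the 2 arrays that stood apart and 0 to 4 with each array left out. The labels do not say whether replicate numbers pair the arrays. The correlation of replicate differences was -0.111 for withdrawal and dDAVP, -0.002 for withdrawal and vehicle and -0.623 for dDAVP and vehicle. With the replicate number as a block the counts were 1, 5 and 0, and with the crossed pairing as a block, chosen after seeing the data, 4, 12 and 5. The cause was not tested, beyond the fewer genes or arrays that some alternatives hold. For the alternatives other than cyclic loess, the share of all genes at an unadjusted p under 0.05 is not given. Their counts of members are therefore not read as results about the members. The number of arrays limits all of these values.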
